A study of Mus musculus with 10 samples.

Results

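The genes described here make, take up, store and export cholesterol. They were chosen as a list of 31 gene symbols covering synthesis, control by the sterol regulatory element binding protein (SREBP) pathway, uptake and efflux, and each was matched to the deposited table by its Entrez Gene ID. Of the 31 genes 28 had a row among 16475 gene rows, and Hmgcs1, Idi1 and Fdps were not analysed here. By role, 4 genes covered the early steps of synthesis, 11 the steps from squalene onwards, 4 SREBP control, 6 uptake, intracellular transfer and storage, and 3 efflux.

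The samples were kidney cortex from which glomeruli had been removed, taken from mice of the BKS background aged 24 weeks. The diabetic group was BKS db/db (5 mice), in which both copies of the leptin receptor gene carry the db mutation, and the control group was BKS db/m (5 nondiabetic littermates), which carry the db mutation on a single copy. Each mouse gave 1 Affymetrix array, no treatment was recorded, and the sex of the mice and the number of litters were not used here. The db mutation acts in the whole animal, so the comparison does not separate effects that start in the kidney from effects of obesity and high blood glucose. The series title places the comparison within the question of how metabolism is reprogrammed in tissues with diabetic complications.

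Cells make cholesterol from acetyl-CoA through mevalonate, squalene and lanosterol. When sterols run low in the endoplasmic reticulum, SCAP carries SREBP to the Golgi, where it is cut into a transcription factor that switches on most genes of the pathway, while INSIG proteins hold it back when sterols are plentiful. Excess cholesterol activates the liver X receptors, which raise the efflux pumps ABCA1 and ABCG1. The kidney tubule is not a main site of cholesterol synthesis in the body, but sterol accumulation in the diabetic kidney has been widely studied.

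Values are log2 expression levels, and a change is db/db minus db/m on that scale with its standard error. Medians of the arrays ranged from 8.46 to 8.66. Precision is limited by having 5 arrays in each group. A gene was called when limma gave a Benjamini-Hochberg adjusted p under 0.05 over all 16475 genes. The array of db/db mouse 1 stood apart, with a Pearson r across genes of 0.938 to 0.962 with the other 9 arrays, which correlated with each other at 0.985 or more, so values are given with all mice and, for the sterol genes, also without it. The marker lists of proximal tubule were bright in all mice, with gene means of 12.45 to 14.13. Podocyte markers were measured in both groups although glomeruli had been removed. In db/db 3 of 7 rose, or 6 of 7 without db/db 1, against 2.96% and 6.84% of all genes. Markers of the adrenal gland, a neighbouring organ rich in sterol enzymes, gave list means of 4.66 to 5.11. Of these 5 of 8 lay below the 25th percentile of gene means. The list mean hides Hsd3b1, which read 5.33 to 5.99 in db/m and 4.89 in db/db 1. In db/db mice 2 to 5 it read 6.84, 7.80, 6.95 and 7.35. Fat cell markers were raised in 1 control, db/m 4, where Adipoq was at 8.87 against at most 4.85 in every other mouse. Because the RNA came from a mixture of cortex cells, fewer cells of a type and less RNA per cell cannot be told apart.

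Of the 28 sterol genes 7.14% were called, near the 6.51% of all genes called in either direction. Cyp51 and Mvd, both of the synthesis pathway, fell in db/db, and no sterol gene rose. The 2 falls made up 7.14% of the 28 genes, against 3.54% of all genes, and the background for rises was 2.96%. Over all genes 6.51% were called, with 488 higher and 584 lower, or 363 higher and 751 lower when each array was centred on its median; that centring left the sterol counts at 0 and 2. The median change was -0.14 over the 28 genes and -0.03 over all genes. Without db/db 1 the falls were Cyp51, Mvd, Sc5d and Lcat, 14.3% of the list against 5.93% of all genes, again with 0 rises against 6.84%, and the median change was -0.07 against -0.01 over all genes.

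**Figure D1:**
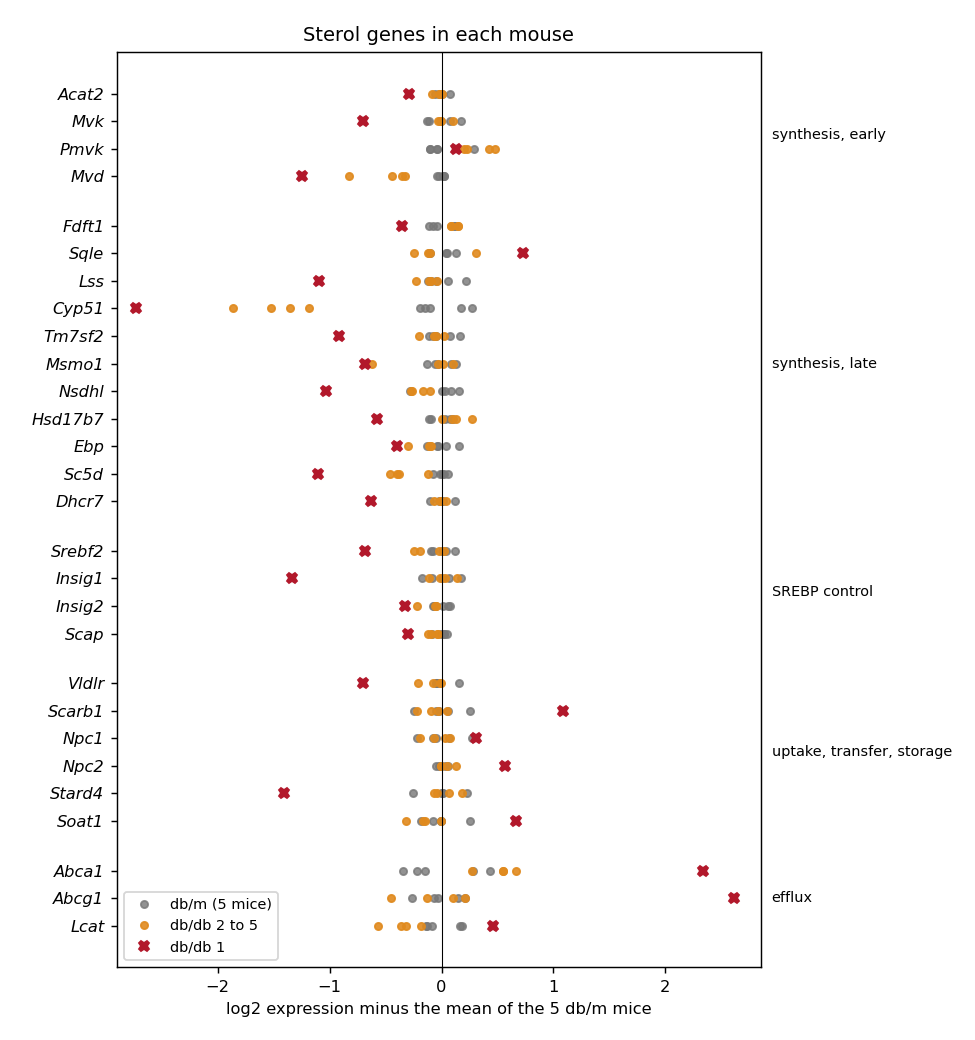
Level of each of the 28 sterol genes in each mouse, as log2 expression minus the mean of the 5 db/m mice, grouped by role; grey points are db/m mice, orange points are db/db 2 to 5 and crosses are db/db 1. Cyp51 is the gene whose 5 db/db mice lie farthest below the controls, and db/db 1 lies at the edge of most rows.

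Cyp51, which encodes the lanosterol demethylase that opens the conversion of lanosterol to cholesterol, had the largest change of the 28 genes. In db/m mice 1 to 5 its level was 12.38, 12.01, 12.10, 12.48 and 12.06, and in db/db mice 1 to 5 it was 9.48, 10.85, 10.34, 10.68 and 11.02. Every db/db mouse lay below every control, and db/db 1 was the lowest. The mean fell from 12.20 ± 0.21 to 10.47 ± 0.61 (SD, n = 5 each), a 3.32-fold drop (-1.73 ± 0.26, limma adjusted p = 0.00534). Without db/db 1 the drop was 2.79-fold (-1.48 ± 0.15, limma adjusted p = 0.000446). Leaving out any 1 of the 10 mice left it called, with limma adjusted p of at most 0.0184, reached without db/m 3 and without db/m 4.

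Mvd, which encodes mevalonate diphosphate decarboxylase and so supplies the isoprene units of the pathway, fell less. Its level was 11.53, 11.51, 11.58, 11.58 and 11.57 in db/m mice 1 to 5, and 10.31, 11.23, 10.73, 11.11 and 11.20 in db/db mice 1 to 5. The controls were tightly grouped, the groups did not overlap, and db/db 1 and db/db 3 were the lowest. The mean went from 11.55 ± 0.03 to 10.92 ± 0.39 (SD, n = 5 each), a 1.56-fold fall (-0.64 ± 0.16, limma adjusted p = 0.0473), or -0.49 ± 0.10 without db/db 1 (limma adjusted p = 0.0118). With all mice the call was near the threshold: it held in 2 of the 10 fits that left out 1 mouse, those without db/db 1 and db/db 5, and limma adjusted p rose to 0.112 without db/m 3.

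Sc5d encodes the sterol desaturase that acts shortly before the last step of the pathway. It stood at 11.28, 11.41, 11.36, 11.38 and 11.34 in db/m mice 1 to 5 and at 10.25, 10.96, 10.97, 11.23 and 10.89 in db/db mice 1 to 5. The groups did not overlap, but the gap between db/db 4 and db/m 1 was narrow. The change was -0.50 ± 0.15 with all mice (limma adjusted p = 0.0884) and -0.34 ± 0.08 without db/db 1, a 1.27-fold fall (limma adjusted p = 0.0178). It was called in that fit alone among the 10 that left out 1 mouse, and with array weights over all 10 mice (-0.30 ± 0.09, limma adjusted p = 0.038). Cyp51, Mvd and Sc5d were the 3 of 28 sterol genes whose groups did not overlap, all lower in db/db. Groups did not overlap for 10.2% of all genes, 5.85% lower and 4.35% higher.

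**Figure D2:**
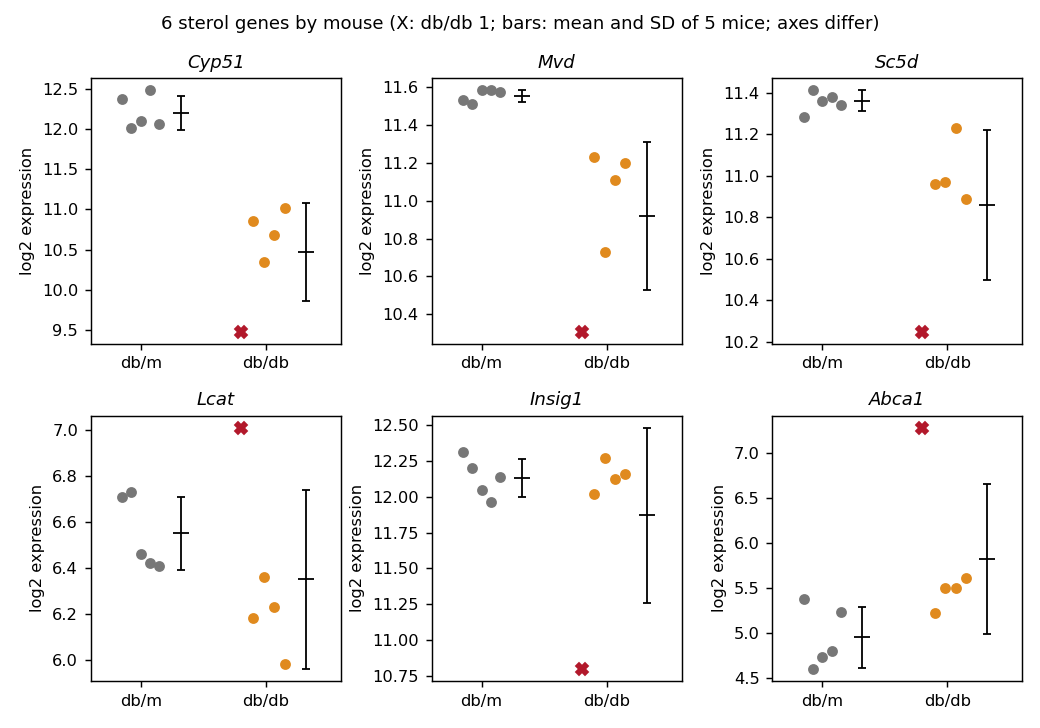
Log2 expression in each mouse for Cyp51, Mvd, Sc5d, Lcat, Insig1 and Abca1, with the mean and SD of 5 mice beside each group; crosses are db/db 1 and the vertical axes differ and do not start at 0. The groups are apart for Cyp51, Mvd and Sc5d, whereas db/db 1 alone is low for Insig1 at 10.80. For Abca1 db/db 1 is highest at 7.28, and db/db 3, 4 and 5, at 5.50, 5.50 and 5.61, also lie above every control.

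The promoters of the 4 genes called in either fit are shown, those of Cyp51, Mvd and Sc5d because synthesis genes are known SREBP targets, and Lcat as the called efflux gene. Insig1, a standard SREBP target that was not called, is shown beside them. The stretches are the 150 bases before each RefSeq start site in GRCm38.p6, read 5′ to 3′ on the gene's strand, with the letters CCAAT, or ATTGG for the other strand, in capitals. CCAAT is the core bound by NF-Y, a factor known to act together with SREBP.
Cyp51, chr5:4104698-4104847, minus strand: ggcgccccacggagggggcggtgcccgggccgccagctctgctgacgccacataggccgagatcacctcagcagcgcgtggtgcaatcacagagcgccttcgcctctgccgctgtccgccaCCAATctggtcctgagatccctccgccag
Mvd, chr8:122443423-122443572, minus strand: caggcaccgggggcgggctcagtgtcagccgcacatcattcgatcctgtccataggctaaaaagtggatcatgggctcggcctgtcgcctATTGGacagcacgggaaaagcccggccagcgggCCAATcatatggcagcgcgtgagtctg
Sc5d, chr9:42264301-42264450, minus strand: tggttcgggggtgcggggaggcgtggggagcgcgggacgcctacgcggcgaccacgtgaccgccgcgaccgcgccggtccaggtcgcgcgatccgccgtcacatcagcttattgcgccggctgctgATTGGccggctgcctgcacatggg
Lcat, chr8:105943403-105943552, minus strand: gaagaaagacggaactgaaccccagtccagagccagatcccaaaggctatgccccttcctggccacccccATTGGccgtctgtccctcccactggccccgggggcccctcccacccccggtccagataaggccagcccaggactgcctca
Insig1, chr5:28071262-28071411, plus strand: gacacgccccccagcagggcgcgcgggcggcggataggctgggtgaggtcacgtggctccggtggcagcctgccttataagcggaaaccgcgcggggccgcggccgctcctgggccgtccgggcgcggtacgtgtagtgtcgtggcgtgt

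In these stretches CCAAT began 29 bases before the start of Cyp51 and 27 bases before that of Mvd, on the gene's strand. On the other strand it lay with its first printed base 60 bases before the start in Mvd, 24 in Sc5d and 80 in Lcat, and the Insig1 stretch held 0 copies, although the longer window of Insig1, described next, held CCAAT. Over windows from 250 bases before to 50 after each start, CCAAT on either strand was found in 19 of the 29 windows of 22 sterol genes, or 65.5%, and in 37.4% of all 32851 windows. The sterol element letters TCACNCCAC (GTGGNGTGA on the other strand) were found in 0 of those 29 windows and in 1.24% of all windows. The promoters of Abcg1, Fdft1, Npc1, Scarb1, Sqle and Stard4 were not analysed here. These are matches of letters in a short window and do not show binding, and the motifs found do not overlap each other.

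The other early synthesis genes did not pass the test. Acat2, which encodes the cytosolic thiolase at the entry of the pathway, had a change of -0.08 ± 0.07, or -0.03 ± 0.05 without db/db 1, between a control mean of 13.37 ± 0.05 and a db/db mean of 13.29 ± 0.12 (SD, n = 5 each). The mevalonate kinase gene Mvk had -0.13 ± 0.15, or 0.01 ± 0.08 without db/db 1. Pmvk, whose product adds the next phosphate to mevalonate, went the other way. It read 10.22, 9.89, 9.89, 9.83 and 9.83 in db/m mice 1 to 5 and 10.06, 10.36, 10.13, 10.16 and 10.41 in db/db mice 1 to 5. The db/db mice lay above 4 of the 5 controls but overlapped db/m 1. The change was 0.29 ± 0.10 (limma adjusted p = 0.127), or 0.33 ± 0.10 without db/db 1 (limma adjusted p = 0.0605). The median over the 4 early genes was -0.10 with all mice and -0.01 with db/db 1 left out.

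The genes of the steps around Cyp51 were not called. Lss encodes the cyclase that makes lanosterol, the substrate of Cyp51, and had a change of -0.31 ± 0.19, with a 95% interval from -0.74 to 0.11. Tm7sf2 encodes a sterol reductase that acts on the product of Cyp51 and had a change of -0.24 ± 0.17, with a 95% interval from -0.61 to 0.13. With db/db 1 left out these were -0.12 ± 0.08 and -0.07 ± 0.08. Both comparisons with Cyp51 were chosen after its values were seen, so they are a description without a test. Within each mouse, the log2 difference between Cyp51 and Lss went from 2.17 ± 0.21 in db/m to 0.76 ± 0.24 in db/db (SD, n = 5 each), and that between Cyp51 and Tm7sf2 from 0.97 ± 0.22 to -0.52 ± 0.35. The shifts were -1.42 and -1.49, and with db/db 1 left out they were -1.36 and -1.41. Differences between probes of different genes carry their own probe effects, so the shift and not the level is compared.

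The remaining late synthesis genes were not called in either fit. Nsdhl, which encodes a sterol dehydrogenase, was nearest to Sc5d in size, with -0.37 ± 0.17, or -0.20 ± 0.09 without db/db 1 (limma adjusted p = 0.25 and 0.198). The isomerase gene Ebp had -0.20 ± 0.09, or -0.15 ± 0.08 without db/db 1. The methyl oxidase gene Msmo1 had -0.24 ± 0.16, or -0.13 ± 0.14 without db/db 1, where db/db 5, at 10.13, was as low as db/db 1, at 10.06, and the other 3 db/db mice read 10.72 to 10.85. Dhcr7, of the last reduction, had -0.13 ± 0.13, or -0.01 ± 0.06 without db/db 1. The squalene synthase gene Fdft1 had 0.02 ± 0.11 (0.12 ± 0.07 without db/db 1), the reductase gene Hsd17b7 -0.02 ± 0.14 and the squalene epoxidase gene Sqle, a rate-limiting step, 0.11 ± 0.17. The signs of Fdft1, Hsd17b7 and Sqle turned in at least 1 other fit. Without db/db 1 the 95% intervals were -0.29 to 0.21 for Sqle, -0.05 to 0.29 for Hsd17b7 and -0.15 to 0.13 for Dhcr7. The 11 late genes had a median change of -0.24, or -0.12 without db/db 1.

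**Figure D3:**
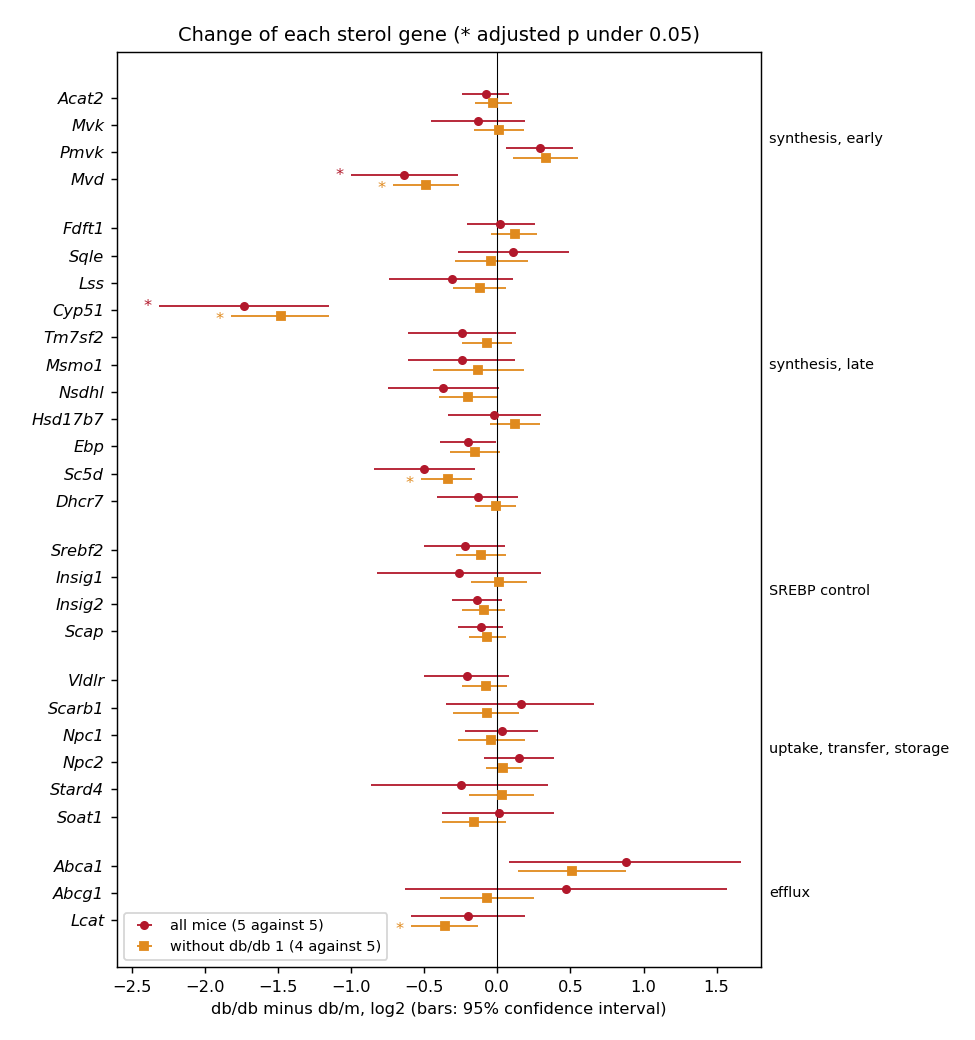
Change of each sterol gene, db/db minus db/m in log2 units, with the 95% confidence interval from limma, for all mice (circles) and without db/db 1 (squares); asterisks mark an adjusted p under 0.05. With all mice Cyp51 and Mvd are marked, without db/db 1 Cyp51, Mvd, Sc5d and Lcat are, and most other intervals include 0.

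The SREBP control genes were not called. Srebf2, which encodes the SREBP form that drives cholesterol synthesis, had a control mean of 10.27 ± 0.08 and a db/db mean of 10.05 ± 0.28 (SD, n = 5 each; -0.22 ± 0.13, limma adjusted p = 0.337), and its change was -0.11 ± 0.08 without db/db 1. Insig1, a sensitive SREBP target as well as its inhibitor, read 12.31, 12.20, 12.05, 11.96 and 12.14 in db/m mice 1 to 5 and 10.80, 12.02, 12.27, 12.12 and 12.16 in db/db mice 1 to 5. Only db/db 1 lay outside the control range. The change was -0.26 ± 0.25 with all mice and 0.01 ± 0.08 without db/db 1, with a 95% interval from -0.18 to 0.20 in the second fit. Insig2, the form less dependent on SREBP, had -0.14 ± 0.08, and the escort gene Scap had -0.11 ± 0.07. Without that mouse these were -0.09 ± 0.06 and -0.07 ± 0.06. Of the 4 genes 0 passed in either fit, with medians of -0.18 and, without db/db 1, -0.08.

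Uptake, transfer and storage genes were not called in either fit. The receptor genes were Vldlr, of triglyceride-rich lipoproteins, at -0.21 ± 0.13, or -0.08 ± 0.07 without db/db 1, and Scarb1, of high-density lipoprotein, at 0.16 ± 0.23, or -0.07 ± 0.10 without db/db 1. Scarb1 read 9.91 in db/db 1 and 8.60 to 8.87 in the other db/db mice, against 8.58 to 9.08 in db/m. The lysosomal export genes Npc1 and Npc2 had changes of 0.03 ± 0.11 and 0.15 ± 0.11, or -0.04 ± 0.10 and 0.04 ± 0.06 without db/db 1. Stard4, which encodes a soluble sterol carrier and is a known SREBP target, was at 8.70 in db/db 1 and 10.04 to 10.29 in the other db/db mice, against 9.85 to 10.33 in db/m. Its change was -0.25 ± 0.27, or 0.03 ± 0.10 without db/db 1. Soat1, which encodes an enzyme that esterifies cholesterol for storage, had 0.01 ± 0.17, or -0.16 ± 0.10 without db/db 1. The median over these 6 genes was 0.02, or -0.05 without db/db 1.

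The efflux genes were split between mice. Abca1, the pump that loads cholesterol onto apolipoprotein A-I, was dim, at 5.38, 4.60, 4.73, 4.80 and 5.23 in db/m mice 1 to 5 and 7.28, 5.22, 5.50, 5.50 and 5.61 in db/db mice 1 to 5. All db/db mice but db/db 2 lay above every control. The change was 0.88 ± 0.36 with all mice (limma adjusted p = 0.19) and 0.51 ± 0.17 without db/db 1 (limma adjusted p = 0.0754), so the difference did not pass in either fit. Abcg1, the pump that exports to mature high-density lipoprotein, read 8.39 to 8.86 in db/m, 11.26 in db/db 1 and 8.20 to 8.86 in the other db/db mice. Its change was 0.47 ± 0.49, or -0.07 ± 0.14 without db/db 1.

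Lcat, which encodes the plasma enzyme that esterifies cholesterol on high-density lipoprotein, was called only without db/db 1. It read 6.71, 6.73, 6.46, 6.42 and 6.41 in db/m mice 1 to 5, and 7.01, 6.18, 6.36, 6.23 and 5.98 in db/db mice 1 to 5. db/db 1 was the highest mouse and the other 4 db/db mice lay below every control. The change was -0.36 ± 0.10 without db/db 1 (limma adjusted p = 0.0492) and -0.20 ± 0.18 with all mice (limma adjusted p = 0.565). The call without db/db 1 was near the threshold. With the mouse number as a block and db/db 1 left out, limma adjusted p was 0.145. It was 0.0555 with array weights over all mice, and 0.0271 with arrays centred and db/db 1 left out. With db/db 1 left out, 4 of the 28 sterol genes had groups that did not overlap, all lower in db/db, against 7.61% of all genes that were lower and 7.76% that were higher in this way. Over the 3 efflux genes the median was 0.47 with all mice and -0.07 with db/db 1 left out.

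In db/db 1 the synthesis genes were low and the export genes high. Of the 15 synthesis genes 13 had their lowest level of all 10 mice in db/db 1, against 41.6% of all genes. Pmvk and Sqle were the exceptions. This was not particular to synthesis genes: 9 of 10 proximal tubule markers and all 6 distal nephron markers were also lowest in db/db 1. Relative to the db/m mean, db/db 1 was lower by 2.73 log2 units for Cyp51 (6.61-fold), 1.25 for Mvd, 1.11 for Sc5d, 1.09 for Lss and 1.03 for Nsdhl. All 4 SREBP control genes were also lowest in this mouse, with Insig1 2.52-fold below the db/m mean, as was Stard4 (2.64-fold). Sqle was the 1 synthesis gene that was highest in db/db 1, at 11.98 against 11.01 to 11.56 in the other db/db mice.

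Most genes of uptake, transfer, storage and efflux were highest in db/db 1. Of the 9 genes of uptake, transfer, storage and efflux 7 had their highest level there, namely Scarb1, Npc1, Npc2, Soat1, Abca1, Abcg1 and Lcat, against 19.9% of all genes. Abcg1 was 6.12-fold and Abca1 5.05-fold above the db/m mean, Scarb1 2.12-fold and Soat1 1.59-fold. Because db/db 1 is a single mouse, these values have no replicate and no test.

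Macrophage, neutrophil and injury markers moved with this pattern. The mean of 12 macrophage markers was 11.25 in db/db 1, 8.43 to 8.61 in db/m and 7.66 to 9.24 in the other db/db mice, and 11 of the 12 markers were highest in db/db 1. The mean of 5 neutrophil markers was 11.33 in db/db 1, 8.67 and 8.23 in db/db 2 and 3, and 6.22 and 6.10 in db/db 4 and 5, against at most 6.86 in db/m, and all 5 were highest in db/db 1. The mean of 8 tubular injury markers was 12.87 in db/db 1, against 8.62 to 9.63 in db/m and 9.30 to 10.50 in the other db/db mice. Of these 8 markers 3 rose in db/db with all mice and 5 without db/db 1, against 2.96% and 6.84% of all genes. The 10 proximal tubule markers had a mean of 12.90 in db/db 1 and 13.23 to 13.41 in every other mouse, and the 6 distal nephron markers 10.75 against 11.65 to 12.24. In db/db mice 2 to 5 the macrophage means were 9.24, 8.17, 7.98 and 7.66 at Cyp51 levels of 10.85, 10.34, 10.68 and 11.02. The injury means in those mice were 10.50, 9.90, 9.30 and 9.34. The part of these cells and of injury in the sterol values was not tested.

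**Figure D4:**
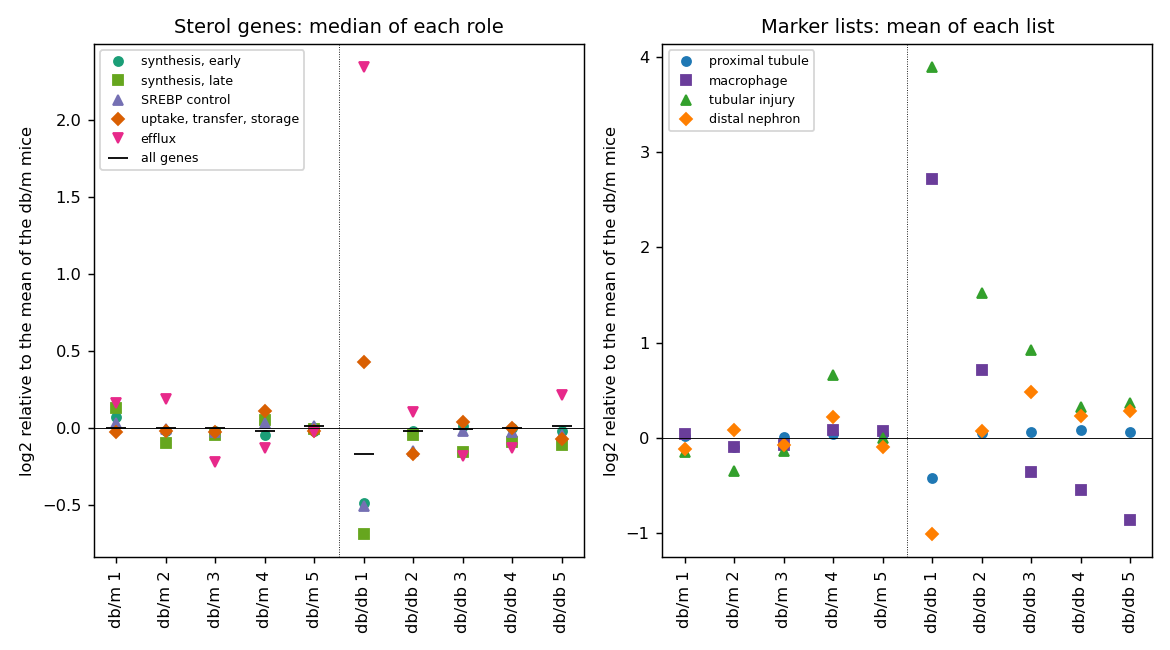
Left, median of the sterol genes of each role in each mouse, and of all genes; right, mean of 4 marker lists; both as log2 units relative to the mean of the db/m mice. In db/db 1 the late synthesis median is -0.69 and the efflux median 2.34, while the other 4 db/db mice lie within -0.18 and 0.21 for all 5 roles; macrophage and injury markers are highest in the same mouse.

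Among 8 further genes of the isoprenoid and sterol pathways 0 passed with all mice, against 6.51% of all genes. Without db/db 1 the call was 1 of 8, against 12.8% of all genes. It was Pdss1, which encodes a subunit of the enzyme that builds the side chain of ubiquinone. Pdss1 fell by 0.50 ± 0.09 in that fit (limma adjusted p = 0.00611), and with all mice its change was -0.70 ± 0.19 (limma adjusted p = 0.0617). With all mice 8 of 8 changes were below 0, with a median of -0.29, and with db/db 1 left out 6 of 8 were, with a median of -0.19. Over all 16475 genes 9370 changes were below 0 with all mice and 8486 with db/db 1 left out. Of 9 genes of SREBP processing and sterol sensing 0 passed with limma in either fit, against 6.51% of all genes, or 12.8% without db/db 1. At an unadjusted limma p under 0.05 there was 1 with all mice and 2 without db/db 1. Over all 16475 genes 3547 and 4364 were under that value in these fits. The lowest adjusted p was that of Erlin1, which encodes an endoplasmic reticulum protein that binds cholesterol, at -0.20 ± 0.08 (limma adjusted p = 0.177). The median of those 9 genes was -0.03, or -0.02 without db/db 1.

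Of 12 oxysterol and bile acid enzymes 2 rose and 2 fell, against 2.96% and 3.54% of all genes. Cyp7b1, the oxysterol hydroxylase, read 12.98, 11.79, 11.76, 13.04 and 12.56 in db/m mice 1 to 5 and 11.35, 9.73, 9.07, 8.76 and 10.18 in db/db mice 1 to 5. The groups did not overlap, and db/db 1 was the db/db mouse nearest to the controls. Amacr, a racemase of bile acid and branched fatty acid breakdown, fell by 0.54 ± 0.13 (limma adjusted p = 0.0379, or 0.00555 without db/db 1), and Baat, which joins bile acids to amino acids, rose by 0.93 ± 0.23 (limma adjusted p = 0.0426, or 0.0303 without db/db 1). The other rise was Cyp39a1, an oxysterol hydroxylase outside the naming rule (0.48 ± 0.12, limma adjusted p = 0.0479). With each array centred on its median neither rise passed. Amacr and Baat lost the call in most fits that left out 1 mouse, with limma adjusted p of 0.0975 for Amacr and 0.112 for Baat without db/m 3. The list's median change was 0.02, or 0.01 without db/db 1.

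Of 11 liver X receptor genes and targets 1 passed with all mice, against 6.51% of all genes. Nr1h3, which encodes liver X receptor alpha, read 10.62, 10.62, 10.66, 10.57 and 10.68 in db/m mice 1 to 5 and 10.39, 10.37, 10.06, 10.29 and 10.15 in db/db mice 1 to 5. It fell by 0.38 ± 0.08 (limma adjusted p = 0.019), or by 0.41 ± 0.07 without db/db 1 (limma adjusted p = 0.00602), and its limma adjusted p was 0.0591 without db/m 3. Without db/db 1, 1 of the 11 rose and 1 fell, against 6.84% and 5.93% of all genes. Arl4c, a target gene of these receptors, was the rise (0.63 ± 0.16, limma adjusted p = 0.0317), and with all mice it was at 0.89 ± 0.28 (limma adjusted p = 0.0914). The median over the list was -0.03, or -0.05 without db/db 1.

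The 11 lipogenic genes controlled by SREBP1 are a list that shares Srebf1 with the receptor targets. With all mice 1 rose and 0 fell, against 2.96% and 3.54% of all genes. Without db/db 1, 1 rose and 3 fell, against 6.84% and 5.93% of all genes. Elovl6, a fatty acid elongase, was the rise (0.82 ± 0.07 without db/db 1, limma adjusted p = 0.000217), while the fatty acid synthase gene Fasn fell by 0.66 ± 0.16 in that fit (limma adjusted p = 0.0263) and the acetyl-CoA synthetase gene Acss2 by 0.28 ± 0.07 (limma adjusted p = 0.0345). The third fall was Me1, malic enzyme, outside the naming rule (-0.27 ± 0.08, limma adjusted p = 0.0479). None of the 3 passed with all mice (limma adjusted p = 0.0713 for Fasn, 0.135 for Acss2 and 0.0511 for Me1), and with arrays centred on their medians 2 of the list fell. The list median was -0.30, or -0.27 without db/db 1.

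Of 19 genes of lipoprotein and lysosomal cholesterol handling 2 rose and 1 fell. Over all genes 2.96% rose and 3.54% fell, or 6.84% and 5.93% without db/db 1. Apoc1, an apolipoprotein gene, read 6.22 to 6.68 in db/m and 7.57, 7.54, 7.95, 7.14 and 8.13 in db/db mice 1 to 5, a 2.43-fold rise (1.28 ± 0.18, limma adjusted p = 0.00386), or 1.30 ± 0.19 without db/db 1 (limma adjusted p = 0.00247). Soat2, the second cholesterol esterifying enzyme, rose from a dim 4.28 ± 0.31 to 5.22 ± 0.50 (SD, n = 5 each; 0.94 ± 0.24, limma adjusted p = 0.0439, or 0.0206 without db/db 1), and its limma adjusted p was 0.114 without db/m 3. Cd36, a scavenger receptor for fatty acids and oxidised lipoprotein, was the fall and read 11.96 to 12.48 in db/m and 9.46 to 10.84 in db/db. With db/db 1 left out, 3 rose and 3 fell, adding Sort1, a sorting receptor (0.48 ± 0.11, limma adjusted p = 0.0207), Stard3, a late endosomal sterol carrier (-0.38 ± 0.06, limma adjusted p = 0.00551), and Nceh1, a cholesteryl ester hydrolase (-0.38 ± 0.09, limma adjusted p = 0.0188), all outside the naming rule. The list median was 0.08, or 0.07 without db/db 1.

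**Figure D5:**
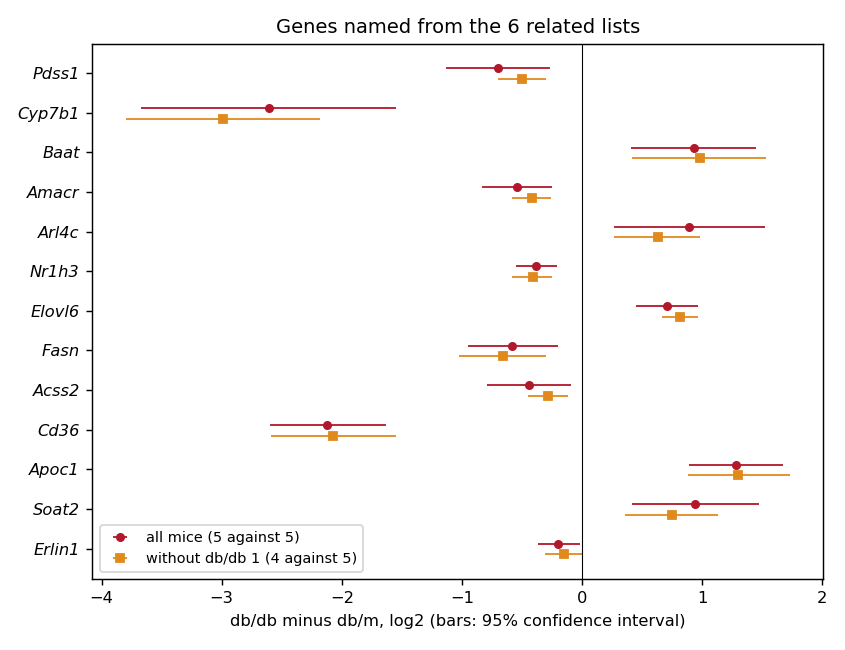
Change of the 13 genes named from the 6 related lists, db/db minus db/m in log2 units with 95% confidence intervals from limma, for all mice (circles) and without db/db 1 (squares). Cyp7b1, Cd36 and Nr1h3 lie below 0 and Apoc1, Soat2 and Baat above it in both fits.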

How the data were processed

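Kidney cortex RNA of 10 mice, 5 db/db and 5 db/m, was measured on Affymetrix arrays. Deposited values are on the log2 scale, and the submitters' processing notes name RMA as the tool the authors used. Its version and the way probes were grouped by Entrez Gene ID are not given in the sources used here. This method compresses differences of dim and very bright genes. The table's 64 control rows were left out, and of 16475 gene rows 16257 were named through their Entrez ID. Every pair of arrays differed by at least 3.07 for some gene, so no array was a copy.

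The comparison of db/db with db/m used lmFit and eBayes of limma 3.58.1 (R 4.3.3, two-sided), with Benjamini-Hochberg adjustment over all genes. The script was tested on simulated data. No filter on dim genes was applied. Intervals are 95%. Figures used matplotlib 3.10.9. Alternatives are described in the closing section.

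The sterol genes, the related lists and the rule were chosen with earlier results of these data known. The rule names all sterol genes, and from each related list up to 3 genes called in either fit with the largest change, or the gene with the lowest adjusted p where none was called; genes named outside it were chosen after their values were seen. A gene of the related lists is not reported here. The mouse number was not used as a block: deviations of same-numbered mice correlated at -0.09 to 0.01, which gives no sign of pairing.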

Additional observations from a re-analysis of the deposited data

Results flagged for a closer look

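In 82 groups of 5 mice (41 named genes, each in db/db and db/m), a mouse was far from the other 4 of its group in 17 cases by Dixon's criterion (gap over range above 0.71), where chance gives about 1 in 20 groups; 15 of the 17 were db/db 1. It was low for Mvk (8.44, the others at 9.11 to 9.24), Fdft1 (10.70, others 11.13 to 11.20), Lss (8.94, others 9.81 to 9.99), Tm7sf2 (10.32, others 11.04 to 11.26), Nsdhl (11.13, others 11.89 to 12.06), Dhcr7 (11.20, others 11.76 to 11.87), Insig1 (10.80, others 12.02 to 12.27) and Stard4 (8.70, others 10.04 to 10.29). Of the genes from the related lists it was low for Pdss1 (10.22), Elovl6 (9.82) and Acss2 (11.63). It was high for Scarb1 (9.91, others 8.60 to 8.87), Npc2 (13.08, others 12.51 to 12.64), Abca1 (7.28, others 5.22 to 5.61) and Abcg1 (11.26, others 8.20 to 8.86). The other cases were controls: Pmvk in db/m 1 (10.22, others 9.83 to 9.89) and Vldlr in db/m 4 (11.67, others 11.47 to 11.50), the mouse with raised fat cell markers.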

How the results depend on the processing

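Cyp51 kept its call and direction in every alternative run. Over all genes 1072 were called, 393 with the mouse number as a replicate block, 2641 with array weights, 279 at an adjusted p under 0.01, 575 with at least a 1.5-fold change, 2219 with arrays centred and db/db 1 left out (added after seeing the data), and 490 to 2104 when single mice were left out. Of sterol genes 2 fell: 1 (Cyp51) with the block, with block and db/db 1 left out, after repeated quantile normalisation and under 0.01, 3 with array weights (Sc5d added), 4 with arrays centred and without db/db 1, and 1 to 4 when single mice were left out. The count of rises was 0, except 1, Abca1 (limma adjusted p = 0.0228), with the block and db/db 1 left out. For Mvd the block gave an adjusted p of 0.0984; the numbers are not shown to pair mice.

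Changes whose sign turned were all of uncalled genes. With the block and without db/db 1 they were Mvk 0.05, Sqle -0.01, Hsd17b7 0.14, Insig1 0.05, Scarb1 -0.08, Npc1 -0.06, Stard4 0.04, Soat1 -0.18 and Abcg1 -0.09. With array weights they were Mvk 0.01, Sqle -0.04, Hsd17b7 0.12, Scarb1 -0.02, Npc1 -0.02, Stard4 0.10 and Soat1 -0.11. With arrays centred they were Fdft1 -0.05, Npc1 -0.04 and Soat1 -0.06. With arrays centred and without db/db 1 they were Sqle -0.09, Hsd17b7 0.08, Scarb1 -0.12, Npc1 -0.08, Npc2 0.00, Soat1 -0.20 and Abcg1 -0.11. With single mice left out the ranges were Mvk -0.19 to 0.01, Fdft1 -0.01 to 0.12, Sqle -0.04 to 0.20, Hsd17b7 -0.09 to 0.12, Insig1 -0.36 to 0.01, Scarb1 -0.07 to 0.25, Npc1 -0.04 to 0.10, Stard4 -0.36 to 0.03, Soat1 -0.16 to 0.09 and Abcg1 -0.07 to 0.70. The cause was not tested. Medians by role moved by less than the spread of the db/db mice in every alternative, but that spread included db/db 1. It was 1.06 for efflux, so it cannot judge the fits that left out db/db 1. The efflux median turned sign, from 0.47 with all mice to -0.07 without db/db 1. Relative to the db/m mean, the efflux median by mouse ranged from -0.18 to 0.21 in the other db/db mice. Abca1 and Soat2 are dim, which limits their folds.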
